A study of Mus musculus and Homo sapiens with 22 samples.

Results

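Cytokines and chemokines that tumour cells release to draw in and expand myeloid cells were followed through RNA sequencing of cells labelled as 2 breast cancer lines and treated with Aurora kinase inhibitors. The genes were chosen by name, 5 in each species: Il6, Cxcl1, Cxcl5, Csf2 and Ccl2 among the 38924 mouse gene IDs, and IL6, CXCL8, CXCL1, CSF2 and CCL2 among the 42713 human gene IDs, 10 of 81637 in all. The human genes were taken by the Ensembl IDs ENSG00000136244 (IL6), ENSG00000169429 (CXCL8), ENSG00000163739 (CXCL1), ENSG00000164400 (CSF2) and ENSG00000108691 (CCL2). MDA-MB-231, a human triple-negative breast cancer line, received ENMD-2076 at 2.5 or 5 µM, TAK901 at 1 or 2 µM, or the solvent DMSO. Cells labelled 4T1, a mouse mammary carcinoma line used as a transplantable model of metastatic breast cancer, received either ENMD-2076, in doses of 1.25 and 2.5 µM, or TAK901, in doses of 1 and 2 µM, or DMSO. Each treatment lasted 24 h, after 24 h in plates. ENMD-2076 and TAK901 both block Aurora kinases, which drive mitosis, and ENMD-2076 is also known to block other kinases. Every group held 2 libraries, with 4T1 DMSO in 2 pairs, so that 4T1 ENMD-2076 was set against DMSO 1 and 2 and 4T1 TAK901 against DMSO 3 and 4. The comparisons asked whether either compound changed the transcripts of these ligands in tumour cells. The cells were grown in plates, and the labels name no host or myeloid cells with them.

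IL-6 signals through its receptor and the shared subunit gp130 to STAT3, and in tumours it is known for sustaining suppressive myeloid cells. CXCL1, mouse Cxcl5 and human CXCL8 carry the ELR motif before their first cysteines and attract neutrophils through CXCR2. CSF2, also called GM-CSF, drives the production and survival of granulocytes and macrophages, and CCL2 attracts monocytes through CCR2. Transcription of these genes is known to depend on NF-kB, AP-1 and C/EBP proteins, and many of their messages are short-lived because proteins such as tristetraprolin (Zfp36) and Regnase-1 (Zc3h12a) bind elements in the 3′ UTR.

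Gene counts summed to 13.4 to 24.0 M reads in the MDA-MB-231 libraries and 14.4 to 30.9 M in the 4T1 libraries, except for TAK901 2 µM in 4T1 with 6.00 and 3.75 M. The 4T1 libraries did not form a single population. Reads of 4 Y-linked genes (Ddx3y, Eif2s3y, Kdm5d, Uty) and of 4 gut endoderm transcription factors (Hnf4a, Cdx2, Pdx1, Foxa2) were 0 in all 6 libraries of ENMD-2076 and DMSO 1 and 2. The same lists summed to 237 to 252 CPM and 333 to 393 CPM in all 6 libraries of TAK901 and DMSO 3 and 4, although 4T1 is known as a line from a female mouse. The 6 epithelial markers (Epcam, Cdh1, Krt8, Krt18, Krt7, Krt14) summed to 3010 to 4950 CPM in all 12, but single markers differed between the sets. Krt7 stood at 949 and 984 CPM in DMSO 1 and 2 and at 164 and 155 CPM in DMSO 3 and 4. Krt8 went the other way (1020 and 1020 CPM, then 2730 and 2440 CPM), and Krt18 was close (1400 and 1420 CPM, then 1380 and 1260 CPM). The Y-linked and gut endoderm values go against the label in the TAK901 set, so all 12 are called the libraries labelled 4T1, and compound and set cannot be told apart between them. Doses follow the sample labels, although the column headers of the ENMD-2076 libraries labelled 4T1 give another dose and no compound, and the growth protocol gives other doses. Marker genes of MDA-MB-231 were not analysed here. In MDA-MB-231, the libraries of TAK901 2 µM differed from each other more than those of any other group did (chi-square per degree of freedom over genes 54.2, against 4.43 to 8.12 in the other MDA-MB-231 groups). Whether the paired libraries came from separate cultures is not stated, so a p-value here reflects only how much libraries of a group differed, possibly for technical reasons.

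In MDA-MB-231 the neutrophil chemokines CXCL8 and CXCL1 fell and IL6 rose with TAK901, while with ENMD-2076 the chemokines fell and no change of IL6 passed the test. CXCL8 and CXCL1 were the most abundant of the 5 genes in CPM, which take no account of gene length, and CCL2 was close to silent. CPM is the count of a gene per M reads of its library, with library sizes scaled by edgeR's trimmed mean of M values (TMM), and a gene was called at an adjusted p under 0.05.

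CXCL1, a CXCR2 ligand, stood at 180 and 180 CPM with ENMD-2076 2.5 µM, at 137 and 132 CPM with 5 µM, at 152 and 151 CPM with TAK901 1 µM and at 139 and 120 CPM with 2 µM, against 248 and 283 CPM with DMSO. All 8 treated libraries lay below both DMSO libraries. For this and later statements of separation, the share over all genes is not given here. In edgeR's quasi-likelihood test with Benjamini-Hochberg adjustment, the log2 fold change was -0.56 (SE 0.11, adjusted p = 0.0421) and -0.98 (SE 0.11, adjusted p = 4.5e-04) at 2.5 and 5 µM ENMD-2076. It was -0.81 (SE 0.11, adjusted p = 5.9e-04) and -1.04 (SE 0.11, adjusted p = 1.8e-05) at 1 and 2 µM TAK901. CXCL1 was thus 1.98-fold lower at the higher ENMD-2076 dose and 2.06-fold lower at the higher TAK901 dose. The call at 2.5 µM ENMD-2076 was lost when any library but the TAK901 2 µM pair was left out, in 8 of 10 fits (adjusted p up to 0.466) and with total-count scaling (0.0603), whereas the other 3 calls held in every such fit. Reads of CXCL1 and its near-identical neighbours CXCL2 and CXCL3 can be shared, and how the counting treated them is not given in the sources used here.

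CXCL8, the main human neutrophil chemokine, which has no mouse counterpart, stood at 373 and 390 CPM with ENMD-2076 2.5 µM, at 330 and 347 CPM with 5 µM, at 318 and 326 CPM with TAK901 1 µM and at 476 and 286 CPM with 2 µM, against 586 and 653 CPM with DMSO. Every treated library was below both DMSO libraries, and the pair at TAK901 2 µM was the most spread. By edgeR it fell at ENMD-2076 5 µM (by -0.87 in log2 fold change, SE 0.18, adjusted p = 0.0137), at TAK901 1 µM (-0.94, SE 0.18, adjusted p = 0.00347) and at TAK901 2 µM (-0.70, SE 0.17, adjusted p = 0.00795). At ENMD-2076 2.5 µM its log2 fold change of -0.70 (SE 0.17) did not pass (adjusted p = 0.111), but it passed with DESeq2 (0.0106), with no filter on low counts (2.0e-05), with the 2 groups alone (5.1e-06) and without either or both TAK901 2 µM libraries (5.0e-08 to 1.8e-07). The call at ENMD-2076 5 µM was lost without either DMSO or either ENMD-2076 5 µM library (adjusted p up to 0.153), and that at TAK901 2 µM was lost without DMSO 2 (adjusted p = 0.0721) and with the 2 groups alone (0.0735). The TAK901 2 µM value was -1.12 without the first library of that pair and -0.39 without the second. CXCL8 and CXCL1 varied together over the 10 libraries (Pearson r of log2 CPM 0.86), which share their DMSO pair and their scaling.

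IL6 stood at 24.7 and 21.1 CPM with ENMD-2076 2.5 µM, at 30.7 and 25.6 CPM with 5 µM, at 58.6 and 51.2 CPM with TAK901 1 µM and at 63.3 and 40.1 CPM with 2 µM, against 25.6 and 29.4 CPM with DMSO. The 4 TAK901 libraries lay above all others, and the ENMD-2076 5 µM pair overlapped the DMSO pair. By edgeR, IL6 rose 1.99-fold with TAK901 1 µM (by 0.99 in log2 fold change, SE 0.20, adjusted p = 0.00522) and 1.87-fold with 2 µM (0.91, SE 0.20, adjusted p = 0.0035). With ENMD-2076 the log2 fold change was -0.26 (SE 0.20, adjusted p = 0.647) at 2.5 µM and 0.03 (SE 0.20, adjusted p = 0.959) at 5 µM. The rise at TAK901 1 µM was lost without DMSO 1 or without the first TAK901 1 µM library (adjusted p up to 0.0644), and that at 2 µM passed in every fit that left out a library (adjusted p up to 0.0468), at 0.54 without the first TAK901 2 µM library and 1.19 without the second. Across the 10 libraries IL6 ran with CSF2 (r = 0.66) and not with CXCL1 (r = -0.43). The first TAK901 2 µM library held the highest value of both IL6 and CSF2, and its part in their correlation was not tested.

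CSF2 showed no change that passed the test with all libraries. It stood at 9.43 and 10.3 CPM with ENMD-2076 2.5 µM, at 14.2 and 10.8 CPM with 5 µM, at 14.1 and 12.1 CPM with TAK901 1 µM and at 22.1 and 10.4 CPM with 2 µM, against 12.2 and 14.2 CPM with DMSO. The first TAK901 2 µM library held the highest value of the 10 and the second the third lowest. Its log2 fold changes were -0.42, -0.09, -0.01 and 0.29 in the same order of groups, each with an SE of 0.29 (edgeR adjusted p = 0.602, 0.903, 0.983 and 0.469). At TAK901 2 µM a single library set its sign and call: it was -0.35 without the first library and 0.73 without the second (adjusted p = 0.0118). CCL2 had 4 reads in DMSO 2 and 0 in the other 9 libraries, so it did not pass the filter on low counts and was not tested. A count of 0 allows up to 3 reads a library, and this limit covers counting error only.

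**Figure D1:**
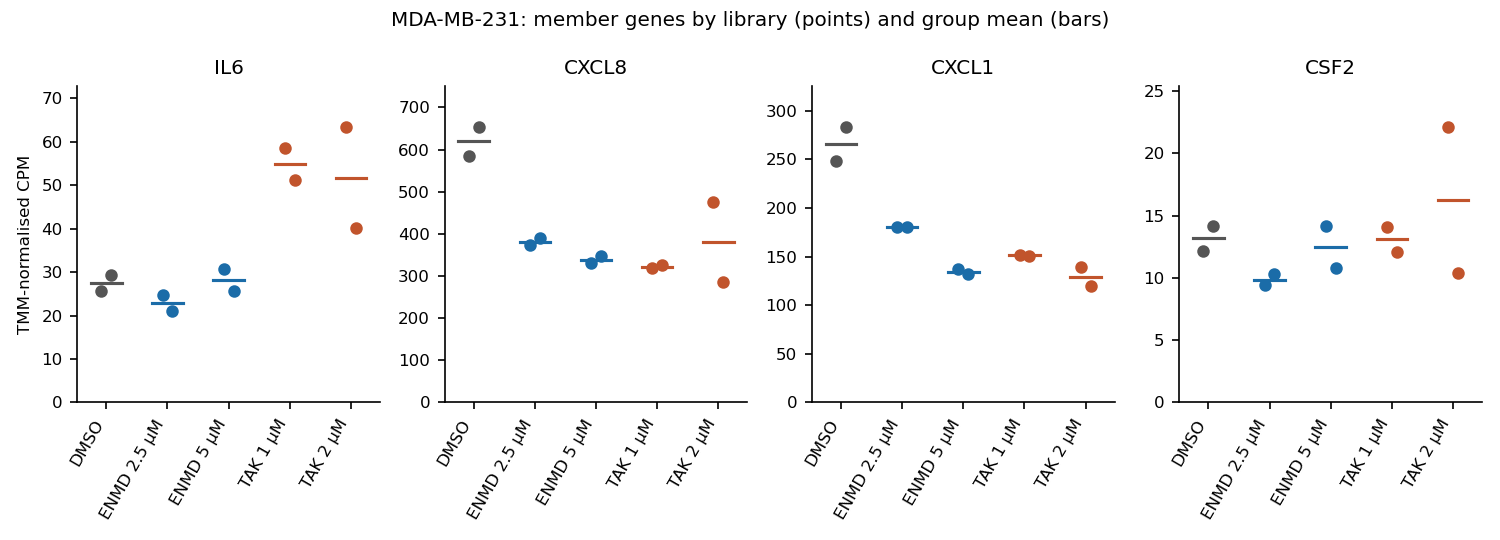
TMM-normalised CPM (y axis, from 0) of IL6, CXCL8, CXCL1 and CSF2 in the 10 MDA-MB-231 libraries, in DMSO and by rising dose of each compound, with points for libraries and bars for means of 2. CXCL1 lay at 120 to 180 CPM in the 8 treated libraries and at 248 and 283 CPM with DMSO, and IL6 at 40.1 to 63.3 CPM in the 4 TAK901 libraries and at 25.6 and 29.4 CPM with DMSO.

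Of the 4 genes tested, 0 rose and 1 fell with ENMD-2076 2.5 µM, where 0.607% of all 14826 genes tested were called (0.519% higher, 0.0877% lower). With 5 µM 0 rose and 2 fell, where 4.89% were called (2.70% higher, 2.19% lower). With TAK901 1 µM 1 rose and 2 fell, where 13.9% were called (6.46% higher, 7.47% lower). With TAK901 2 µM 1 rose and 2 fell, where 31.2% were called (15.2% higher, 16.0% lower). Between doses, none of the 4 was called for ENMD-2076 (0.0135% of all genes called by edgeR, with 1 of the 4 at an unadjusted p under 0.05 and 0 called by DESeq2) or for TAK901 (3.74% called, 0 of the 4 unadjusted and 0 by DESeq2). The ENMD-2076 step of CXCL1 (log2 fold change -0.42, adjusted p = 0.858) passed without either or both TAK901 2 µM libraries (0.00827 to 0.0101) and with the 2 groups alone (1.5e-06), as did that of CXCL8 in the last fit (-0.17, 0.0335). The TAK901 step of CXCL1 passed without the first TAK901 2 µM library (-0.34, adjusted p = 0.0417), and those of CXCL8 (0.55, 1.1e-05) and CSF2 (0.75, 0.0162) without the second. By mean level, CXCL1 ran from TAK901 2 µM (129 ± 13.3 CPM, SD, n = 2) through ENMD-2076 5 µM (134 ± 3.36), TAK901 1 µM (152 ± 0.586) and ENMD-2076 2.5 µM (180 ± 0.477) up to DMSO (265 ± 25.3). The TAK901 2 µM and ENMD-2076 5 µM pairs overlapped, and the others stood apart in these libraries. For CXCL8 the order was TAK901 1 µM (322 ± 5.77), ENMD-2076 5 µM (339 ± 11.7), TAK901 2 µM (381 ± 135), ENMD-2076 2.5 µM (382 ± 12.2) and DMSO (619 ± 47.3), where the TAK901 2 µM pair spanned the other treated groups. For IL6 the order from the top was TAK901 1 µM (54.9 ± 5.27), TAK901 2 µM (51.7 ± 16.4), ENMD-2076 5 µM (28.1 ± 3.59), DMSO (27.5 ± 2.71) and ENMD-2076 2.5 µM (22.9 ± 2.53). The TAK901 libraries lay above all others, although the TAK901 2 µM pair was widely spread, and the ENMD-2076 2.5 µM pair lay below all others. The doses of the compounds differ, so their values are given side by side and were not compared. For each of IL6, CXCL8, CXCL1 and CSF2, the 3 gene IDs whose log2 CPM followed it most closely over the 10 libraries, among 10727 with a mean of at least 5 CPM, had r of 0.934 to 0.976. They are not named here.

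In the libraries labelled 4T1, the same ligands split. With ENMD-2076 Cxcl5 rose at both doses, Il6 appeared at 2.5 µM, and Csf2 fell to 0 reads at 2.5 µM. With TAK901 Cxcl1 rose modestly at both doses, and Cxcl5 fell slightly at 1 µM. The base levels of the DMSO pairs were far apart, with Cxcl5 at 1550 and 1540 CPM in DMSO 3 and 4 and 28.3 and 29.2 CPM in DMSO 1 and 2, and Ccl2 at 54.9 and 56.9 CPM in DMSO 3 and 4 and 0.054 and 0 CPM in DMSO 1 and 2.

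Il6 and Cxcl1 both lie on mouse chromosome 5 (GRCm38 with GENCODE M21: Il6 at chr5:30013114-30019981 and Cxcl1 at chr5:90891241-90893115, plus strand). Cxcl5 lies beside Cxcl1 in the cluster of CXC chemokines at chr5:90759360-90761624 on the plus strand. Csf2 lies at chr11:54247271-54249667 on the minus strand and overlaps the annotated gene Gm12223, and Ccl2 at chr11:82035571-82037453 on the plus strand overlaps Gm17268. Gm17268 had 0 reads in all 12 libraries and Gm12223 at most 11. No source used here gives the counting strand, and reads of Csf2 and Gm12223 cannot be told apart with certainty. RefSeq promoter windows (GRCm38.p6) were found for Il6, Cxcl1 and Csf2, 3 of the 5 mouse genes. The 250 bases before the RefSeq starts of Il6 and Cxcl1 are shown because both hold an NF-kB motif, while their responses below differ. Capitals mark motifs found on either strand: the NF-kB decamer (read as GGGATTTTCC in Il6 and GGGAATTTCC in Cxcl1, with any base allowed at the fifth position), TGANTCA for AP-1, TTGNGCAA for C/EBP and GACGTCA for the core of a cAMP response element, with no overlap between the matches.
Il6 upstream window, chr5:30012864-30013113, + strand: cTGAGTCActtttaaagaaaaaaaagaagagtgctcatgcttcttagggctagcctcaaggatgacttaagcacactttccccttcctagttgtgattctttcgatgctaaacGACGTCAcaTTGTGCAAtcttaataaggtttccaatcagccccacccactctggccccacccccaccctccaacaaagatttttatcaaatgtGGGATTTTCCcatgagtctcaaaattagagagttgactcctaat
Cxcl1 upstream window, chr5:90890995-90891244, + strand: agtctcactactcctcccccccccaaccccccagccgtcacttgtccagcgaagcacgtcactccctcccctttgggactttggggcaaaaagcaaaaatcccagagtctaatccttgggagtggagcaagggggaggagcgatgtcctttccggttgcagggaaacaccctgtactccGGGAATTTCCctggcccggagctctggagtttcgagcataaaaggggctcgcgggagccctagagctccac

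Il6 held, from its far end to its start, AP-1, cAMP response element, C/EBP and NF-kB matches, the last beginning 44 bases before the start. Cxcl1 held the NF-kB match alone, beginning 71 bases before its RefSeq start. The end of its window lies a few bases inside the gene as annotated in GENCODE M21. The window of Csf2 lies wholly upstream of the start annotated in GENCODE M21 and does not cover the bases next to it, so its motifs are not given. Of 32851 promoter windows of 300 bases in the table, 0.411% held the NF-kB motif, 7.81% the AP-1, 2.94% the C/EBP and 3.21% the cAMP response element motif. In the 3′ UTR of their main coding transcripts, the pentamer ATTTA of AU-rich elements occurred 9 times in Csf2, 7 in Cxcl1, 6 in Il6, 5 in Cxcl5 and 1 in Ccl2, against a median of 1 over 20998 genes. Per length, 0.0411% of 19482 genes were at least as dense as Csf2, 0.334% as Il6, 0.559% as Cxcl1, 10.4% as Cxcl5 and 16.2% as Ccl2. Matches of letters describe the sequence and not the use of a site.

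**Figure D2:**
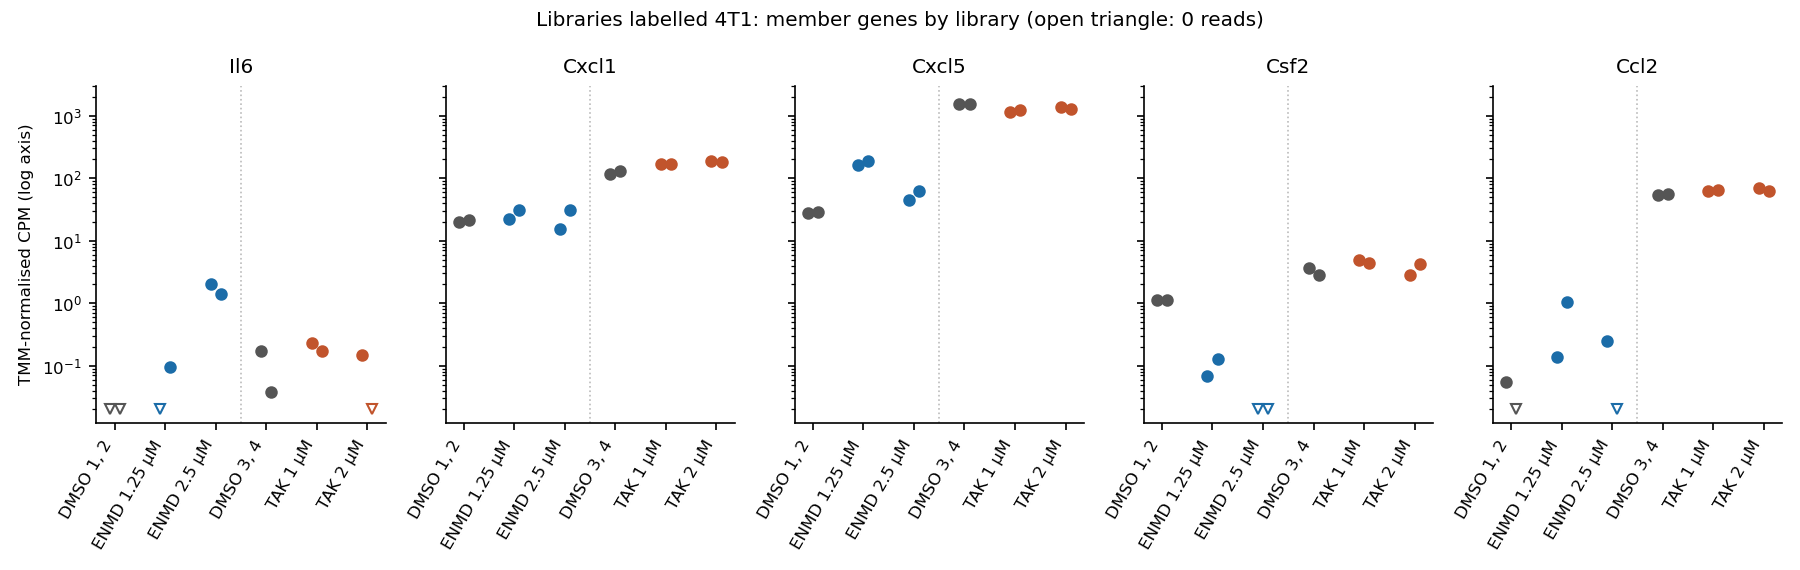
TMM-normalised CPM (y axis, log scale) of the 5 mouse genes in the 12 libraries labelled 4T1, in DMSO and by rising dose within each set, with the dotted line between the ENMD-2076 and the TAK901 set and open triangles for 0 reads. Cxcl5 lay at 163 and 192 CPM with ENMD-2076 1.25 µM, at 45.3 and 62.8 CPM with 2.5 µM and at 28.3 and 29.2 CPM with DMSO 1 and 2, while Csf2 had 0 reads at 2.5 µM.

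Cxcl5, a ligand of the neutrophil receptor CXCR2, stood at 163 and 192 CPM with ENMD-2076 1.25 µM and at 45.3 and 62.8 CPM with 2.5 µM, against 28.3 and 29.2 CPM in DMSO 1 and 2. Both doses lay above DMSO, with the lower dose above the higher. By edgeR it rose 6.21-fold at 1.25 µM (by 2.63 in log2 fold change, SE 0.10, adjusted p = 2.4e-20) and 1.86-fold at 2.5 µM (0.89, SE 0.11, adjusted p = 1.2e-08). The 2.5 µM libraries were lower than the 1.25 µM libraries (log2 fold change -1.74, SE 0.09, edgeR adjusted p = 7.9e-17). These 3 calls held in every alternative fit. Per kilobase of its main transcript, Cxcl5 was the third highest of the 33 myeloid ligands listed at both ENMD-2076 doses and the tenth with DMSO 1 and 2.

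Il6 had 0 and 3 reads with ENMD-2076 1.25 µM and 32 and 16 reads with 2.5 µM, against 0 and 0 in DMSO 1 and 2. At 2.5 µM this came to 2.02 and 1.41 CPM. Il6 passed the filter on low counts through the 2.5 µM pair alone, so the high pair itself brought the gene into the tests. Il6 was called at 2.5 µM (edgeR adjusted p = 6.6e-06, both libraries above both), and taking the DMSO pair at the floor of 3 reads per library, it was at least 10.1-fold higher. It was also higher at 2.5 than at 1.25 µM (edgeR adjusted p = 3.1e-05), at 48 summed reads with 2.5 µM and 3 with 1.25 µM, a ratio of 20.6 in depth-scaled counts (95% exact binomial interval 6.65 to 104). This interval covers counting error only, not the spread between libraries. At 1.25 µM Il6 was not called (adjusted p = 0.216), and all its reads came from 1 library. Even at 2.5 µM Il6 ranked thirteenth among the 33 ligands per kilobase.

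Csf2 had 1 and 4 reads with ENMD-2076 1.25 µM and 0 and 0 with 2.5 µM, against 21 and 19 in DMSO 1 and 2. In CPM these were 0.0687 and 0.129 at 1.25 µM, against 1.13 and 1.12 with DMSO. By edgeR it fell at 1.25 µM (by -3.29 in log2 fold change, SE 0.63, adjusted p = 6.3e-05) and at 2.5 µM (adjusted p = 5.8e-06), where it was at least 4.96-fold lower with the floor of 3 reads per library. Both calls held in every alternative fit, and the step between the doses did not pass (adjusted p = 0.0689; 0.0429 with total counts). Gm12223, which overlaps Csf2, had 0 and 1 reads at 1.25 µM and 0 and 0 at 2.5 µM, against 11 and 2 in DMSO 1 and 2. Acsl6, a fatty acid activating enzyme gene that lies in the same stretch of chromosome 11, was also lower at both doses (log2 fold change -1.90, SE 0.24, adjusted p = 8.0e-08 at 1.25 µM, and -2.52, SE 0.27, adjusted p = 1.0e-09 at 2.5 µM), whereas Il3 had at most 5 reads in any library.

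Cxcl1 stood at 22.1 and 31.5 CPM with ENMD-2076 1.25 µM and at 15.4 and 30.9 CPM with 2.5 µM, against 20.2 and 21.8 CPM in DMSO 1 and 2. The 2.5 µM libraries fell on either side of the DMSO pair. At 1.25 µM it rose by 0.40 on the log2 scale (SE 0.16, edgeR adjusted p = 0.0414), a call lost with DESeq2 (adjusted p = 0.375), within the ENMD-2076 set alone (0.0949) and in 6 of 12 fits that left out a library: either of DMSO 1 and 2, the second 1.25 µM library, the first TAK901 1 µM or either TAK901 2 µM library (adjusted p up to 0.814). Without the second 1.25 µM library the value was 0.08. At 2.5 µM the log2 fold change was 0.09 (SE 0.18, adjusted p = 0.656), and the 2 libraries set its sign: it was 0.59 without the first 2.5 µM library (adjusted p = 8.1e-04) and -0.41 without the second (adjusted p = 0.0204). With scaling by total counts it was -0.26, in a comparison where that scaling gave a median over all genes of -0.37, against -0.02 with TMM.

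Ccl2 had 2 and 33 reads with ENMD-2076 1.25 µM and 4 and 0 with 2.5 µM, against 1 and 0 in DMSO 1 and 2. Summed reads were 35 at 1.25 µM and 1 with DMSO, a ratio of 27.6 in depth-scaled counts. The 95% exact binomial interval of 4.64 to 1120 covers counting error only, not the spread between libraries. Ccl2 was called higher at 1.25 µM (edgeR adjusted p = 3.3e-04). That call rests on 1 library: without the second 1.25 µM library the log2 fold change was 2.02 (adjusted p = 0.342). At 2.5 µM it was not called (adjusted p = 0.23). The lower level at 2.5 than at 1.25 µM (log2 fold change -2.31, adjusted p = 0.00737) became 0.15 without that library, did not pass with DESeq2 (0.0562) or without the second 2.5 µM library (-1.52, 0.0818), and the groups overlapped.

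Of the 5 mouse genes, 3 rose and 1 fell with ENMD-2076 1.25 µM, where 45.9% of all 15375 genes tested were called (22.6% higher, 23.2% lower). With 2.5 µM 2 rose and 1 fell, where 70.3% were called (33.2% higher, 37.1% lower). Between 2.5 and 1.25 µM 1 was higher and 2 were lower, where 73.3% were called (35.4% higher, 37.8% lower). A call alone therefore sets these genes little apart from the rest. Their sizes of change are described, but the spread of sizes over all genes is not given here. At 2.5 µM reads from the mitochondrial genome made 8.83 and 8.72% of counts, at 1.25 µM 6.21 and 7.09%, against 3.92 and 4.13% in DMSO 1 and 2. The transcript Gm26917 made 2190 and 2000 reads per M of the library total, without TMM scaling, at 2.5 µM, against 29.9 to 92.6 in the other 10 libraries, and the TMM factors at 2.5 µM were 0.766 and 0.784. The part of these shifts in the changes of the 5 genes was not tested. At 1.25 µM the 7 haematopoietic markers summed to 23.6 and 27.7 CPM, against 11.4 and 13.3 CPM in DMSO 1 and 2 and 6.2 to 10.7 CPM in the remaining libraries. Csf1r, the receptor of the macrophage growth factor CSF1, had 130 and 402 reads there, against 2 and 14 in DMSO 1 and 2. The pan-leukocyte gene Ptprc and the macrophage gene Adgre1 had 0 reads in both 1.25 µM libraries, as did the T cell gene Cd3e. At 2.5 µM, where Il6 had its reads, the 4 endothelial markers summed to 55 and 57 reads, against 12 and 9 in DMSO 1 and 2 and 6 and 0 at 1.25 µM. Pecam1 (18 and 24 reads, against 2 and 4), Tek (36 and 29, against 10 and 5) and Kdr (1 and 4, against 0 and 0) were called higher at 2.5 µM (edgeR adjusted p = 4.9e-04, 0.00315 and 0.0383), and Cdh5 had 0 reads in all 6 libraries of the set. Pecam1 and Tek passed the filter on low counts through the 2.5 µM pair alone, so the high pair itself brought them into the tests. The 6 fibroblast markers summed to 25.7 to 44.4 CPM in the ENMD-2076 set and 16.9 to 21.4 CPM in the TAK901 set. Pdgfra made most of these sums, at 36.8 and 43.4 CPM in DMSO 1 and 2 and 12.3 and 12.8 CPM in DMSO 3 and 4. Col1a1 went the other way, at 0.216 and 0.648 CPM in DMSO 1 and 2 and 4.67 and 4.17 CPM in DMSO 3 and 4. The part of these markers in the values of the 5 genes was not tested.

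In the TAK901 set the changes were smaller, and compound and set cannot be told apart. Cxcl1 stood at 169 and 171 CPM with 1 µM and at 190 and 184 CPM with 2 µM, against 118 and 130 CPM in DMSO 3 and 4. All 4 treated libraries were above both DMSO libraries. By edgeR Cxcl1 rose 1.37-fold at 1 µM (by 0.45 in log2 fold change, SE 0.12, adjusted p = 0.0139) and 1.5-fold at 2 µM (0.59, SE 0.13, adjusted p = 0.00163). Both calls were lost with DESeq2 (adjusted p = 0.396 and 0.168), the first also without DMSO 3 or either TAK901 1 µM library (adjusted p up to 0.183) and the second without the first TAK901 2 µM library (0.0655).

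Cxcl5 stood at 1150 and 1260 CPM with TAK901 1 µM and at 1380 and 1280 CPM with 2 µM, against 1550 and 1540 CPM in DMSO 3 and 4. It fell by 0.35 on the log2 scale at 1 µM (SE 0.08, edgeR adjusted p = 0.00311; adjusted p = 0.113 with DESeq2), a call also lost without the first TAK901 1 µM library. At 2 µM the log2 fold change was -0.21 (SE 0.08, adjusted p = 0.0732), and it passed without any 1 of the 4 ENMD-2076 libraries and within the TAK901 set alone. Even so, Cxcl5 was the first or second of the 33 ligands per kilobase in each group of this set, at 765 ± 49.4 CPM per kilobase with 1 µM and 844 ± 44.9 with 2 µM, against 981 ± 4.49 with DMSO 3 and 4 (SD, n = 2 each).

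Ccl2 stood at 61.9 and 65.3 CPM with TAK901 1 µM and at 70.2 and 62 CPM with 2 µM, against 54.9 and 56.9 CPM in DMSO 3 and 4. The treated libraries were above the DMSO pair by log2 fold changes of 0.19 (SE 0.12) and 0.25 (SE 0.14), which did not pass (edgeR adjusted p = 0.435 and 0.254). Both passed within the TAK901 set alone (0.0272 and 0.00794) and with the 2 groups alone (0.0109 and 0.0115). Csf2 stood at 4.89 and 4.43 CPM with 1 µM and at 2.86 and 4.29 CPM with 2 µM, against 3.61 and 2.82 CPM in DMSO 3 and 4 (adjusted p = 0.371 and 0.907; at 1 µM 0.0331 with the 2 groups alone). Il6 stayed near the floor, with 4 and 5 reads at 1 µM and 1 and 0 at 2 µM, against 4 and 1 with DMSO. In all, 1 of the 5 rose and 1 fell at 1 µM, where 9.14% of genes were called (3.97% higher, 5.17% lower), and 1 rose and 0 fell at 2 µM, where 14.9% were called (5.63% higher, 9.28% lower). Between the TAK901 doses none of the 5 was called by edgeR (0.0715% of genes called, with 0 of the 5 at an unadjusted p under 0.05 and 0 called by DESeq2). The 2 µM libraries were the shallowest. Their floor of 3 reads stood at 0.5 and 0.801 reads per M of the library total, without TMM scaling.

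**Figure D3:**
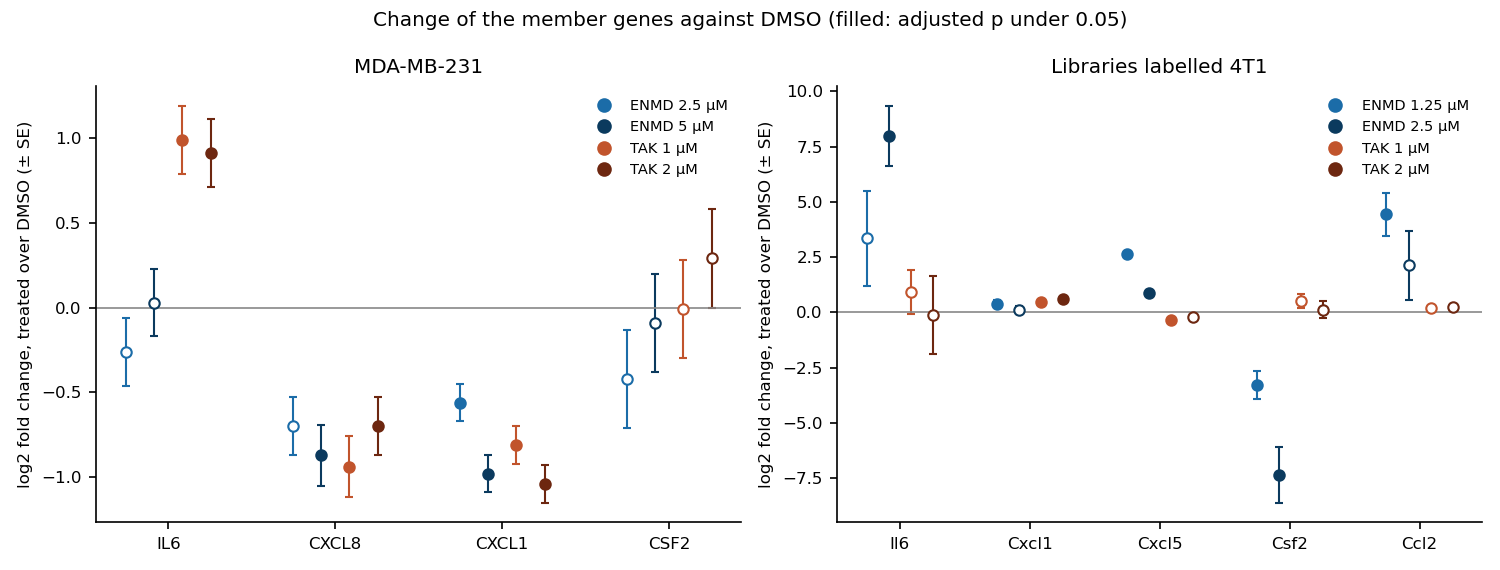
Log2 fold change of each gene over DMSO with its SE (y axis), from edgeR's quasi-likelihood fit, for MDA-MB-231 on the left and the libraries labelled 4T1 on the right, with filled points past the threshold. CXCL1 lay between -0.56 and -1.04 in the 4 MDA-MB-231 comparisons and mouse Cxcl1 between 0.09 and 0.59, while the fitted values of Il6 and Csf2 at ENMD-2076 2.5 µM, against a group without reads, are not measures of size.

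The closest genes by pattern differed with the set. Over the 6 ENMD-2076 and DMSO 1 and 2 libraries, among 10122 genes with a mean of at least 5 CPM, Cxcl5 was followed most closely by Nrp1 (r = 0.998), Cryab (0.995) and Ets2 (0.994), and Cxcl1 by Smarcd1 (0.983), Kdm4dl (0.968) and Mcts1 (0.934). Over the 6 TAK901 and DMSO 3 and 4 libraries, among 10609 genes, Cxcl1 was followed by Tob1 (0.999), Ppp2r5a (0.998) and Rnft2 (0.997). In the same libraries Cxcl5 was followed by Rabggta (0.988), Rpl17 (0.986) and Atf4 (0.986), and Ccl2 by St3gal1 (0.992), Elovl5 (0.990) and Nqo1 (0.990). Cxcl1 ran with Ccl2 (r = 0.90) and opposite to Cxcl5 (r = -0.75) in these 6, and with Cxcl5 at r = 0.52 in the other 6. With 6 libraries that share a DMSO pair, such values describe the libraries.

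Other ligands that act on myeloid cells were described from a list of 28 mouse genes, of which 19 passed the filter on low counts. With ENMD-2076 1.25 µM 5 were higher and 11 lower (median log2 fold change -0.41), and with 2.5 µM 4 were higher and 11 lower (median -1.09), where the medians of all genes were 0.00 and -0.02. Over all genes 45.9% were called at 1.25 µM (22.6% higher, 23.2% lower) and 70.3% at 2.5 µM (33.2% higher, 37.1% lower). Cxcl3, a CXCR2 ligand near Cxcl5 on chromosome 5, rose over DMSO at both doses, as Cxcl5 did. Between 2.5 and 1.25 µM they went opposite ways, with Cxcl3 called higher and Cxcl5 lower. Cxcl3 stood at 9.76 and 12.3 CPM at 1.25 µM and at 14.5 and 15.6 CPM at 2.5 µM, against 1.46 and 1.94 CPM in DMSO 1 and 2, a log2 fold change of 2.73 (SE 0.18) and 3.14 (SE 0.19; edgeR adjusted p = 7.7e-14 and 9.8e-16). Csf3 and Il34 fell. Csf3, which drives neutrophil production, stood at 12.2 and 15.1 CPM at 2.5 µM, against 101 and 96.1 CPM in DMSO 1 and 2 (log2 fold change -2.87, SE 0.11, adjusted p = 3.2e-20). Il34, a ligand of the CSF1 receptor, stood at 0.821 and 2.03 CPM at 2.5 µM, against 35.6 and 35.9 CPM (-4.73, SE 0.22, adjusted p = 3.6e-18). Il1b, a trigger of inflammatory cytokine genes, had 0 reads in both 2.5 µM libraries and was at least 3.49-fold lower than with DMSO. With scaling by total counts the 2.5 µM counts became 4 higher and 12 lower.

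With TAK901 3 of the 19 rose and 0 fell at 1 µM (median 0.02), and 3 rose and 0 fell at 2 µM (median -0.10), beside 9.14 and 14.9% of all genes called. Csf1, Cxcl16 and Cxcl3 were called at both doses. Cxcl3 stood at 91 and 97.6 CPM at 2 µM, against 55.1 and 54.3 CPM in DMSO 3 and 4 (log2 fold change 0.78, SE 0.10, edgeR adjusted p = 1.5e-06). Cxcl16, a chemokine that is also a scavenger receptor, stood at 56.2 and 53.4 CPM, against 33.4 and 30.3 CPM (0.79, SE 0.11, adjusted p = 4.8e-06). Csf1, the main macrophage growth factor, stood at 452 and 477 CPM, against 302 and 314 CPM (0.59, SE 0.06, adjusted p = 5.0e-08). Without the second TAK901 1 µM library, the count at 1 µM was 1, since Cxcl3 and Cxcl16 no longer passed, and Cxcl16 was also lost without DMSO 4. At 2 µM 5 or 6 were called when any 1 of the 6 libraries of the ENMD-2076 set was left out.

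The cluster around Cxcl1 and Cxcl5 on chromosome 5 also holds Ppbp, Pf4, Cxcl15 and Cxcl2. Cxcl2 had 4 and 5 reads with ENMD-2076 1.25 µM and 8 and 13 with 2.5 µM, against 0 and 5 in DMSO 1 and 2, and it was called at 2.5 µM (log2 fold change 2.41, SE 0.72, edgeR adjusted p = 0.00394). With TAK901 it was not called (adjusted p = 0.157 at 1 µM and 0.06 at 2 µM), at 15.8 and 16.9 CPM with 2 µM, against 10.5 and 10.2 CPM in DMSO 3 and 4. Ppbp, a platelet chemokine, was called with ENMD-2076 at both doses (adjusted p = 0.00375 and 0.0127) on 26 and 42 reads at 1.25 µM and 20 and 13 at 2.5 µM, against 11 and 0 with DMSO. Pf4 had at most 5 reads in any library. Cxcl15, and beside Ccl2 also Ccl7, had 0 reads in all 6 libraries of the ENMD-2076 set and 7 to 36 and 5 to 75 reads in the TAK901 set.

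Of the receptors that would let the tumour cells answer these ligands, some were near 0 reads and others were not. Cxcr2, Ccr2, Csf2ra and Csf3r had at most 3 reads in any library. Of 14 listed, 7 passed the filter, among them the IL-6 receptor genes Il6ra (48.6 and 52.9 CPM in DMSO 1 and 2) and Il6st (154 and 158 CPM). With ENMD-2076 1.25 µM 4 were higher and 1 lower (median log2 fold change 0.56), and with 2.5 µM 1 was higher and 5 lower (median -1.25), beside 45.9 and 70.3% of all genes called. At 2.5 µM Il1r1, the interleukin-1 receptor, averaged 4.55 ± 1.44 CPM, against 27.3 ± 0.209 with DMSO 1 and 2 (SD, n = 2 each; log2 fold change -2.63, SE 0.15, edgeR adjusted p = 2.3e-16). Tnfrsf1b, a TNF receptor, averaged 30.7 ± 3.3 CPM, against 106 ± 3.65 (-1.80, SE 0.08, adjusted p = 2.1e-18). Il6ra, the specific subunit for IL-6, averaged 15.2 ± 2.65 CPM, against 50.8 ± 3.02 (-1.76, SE 0.13, adjusted p = 1.1e-13), and Il1rap, the accessory subunit for interleukin-1, fell by 1.25 on the log2 scale (SE 0.15, adjusted p = 1.1e-08). With scaling by total counts 0 were higher and 6 lower. With TAK901 1 µM 2 rose and 0 fell (median 0.10), and with 2 µM 2 rose and 0 fell (median 0.08), beside 9.14 and 14.9% of all genes. At 2 µM Il6st, which encodes gp130, averaged 186 ± 2.41 CPM, against 139 ± 6.14 with DMSO 3 and 4 (0.42, SE 0.07, adjusted p = 2.6e-05), and Tnfrsf1b 113 ± 3.11 CPM, against 73.9 ± 5.08 (0.61, SE 0.08, adjusted p = 2.0e-06).

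**Figure D4:**
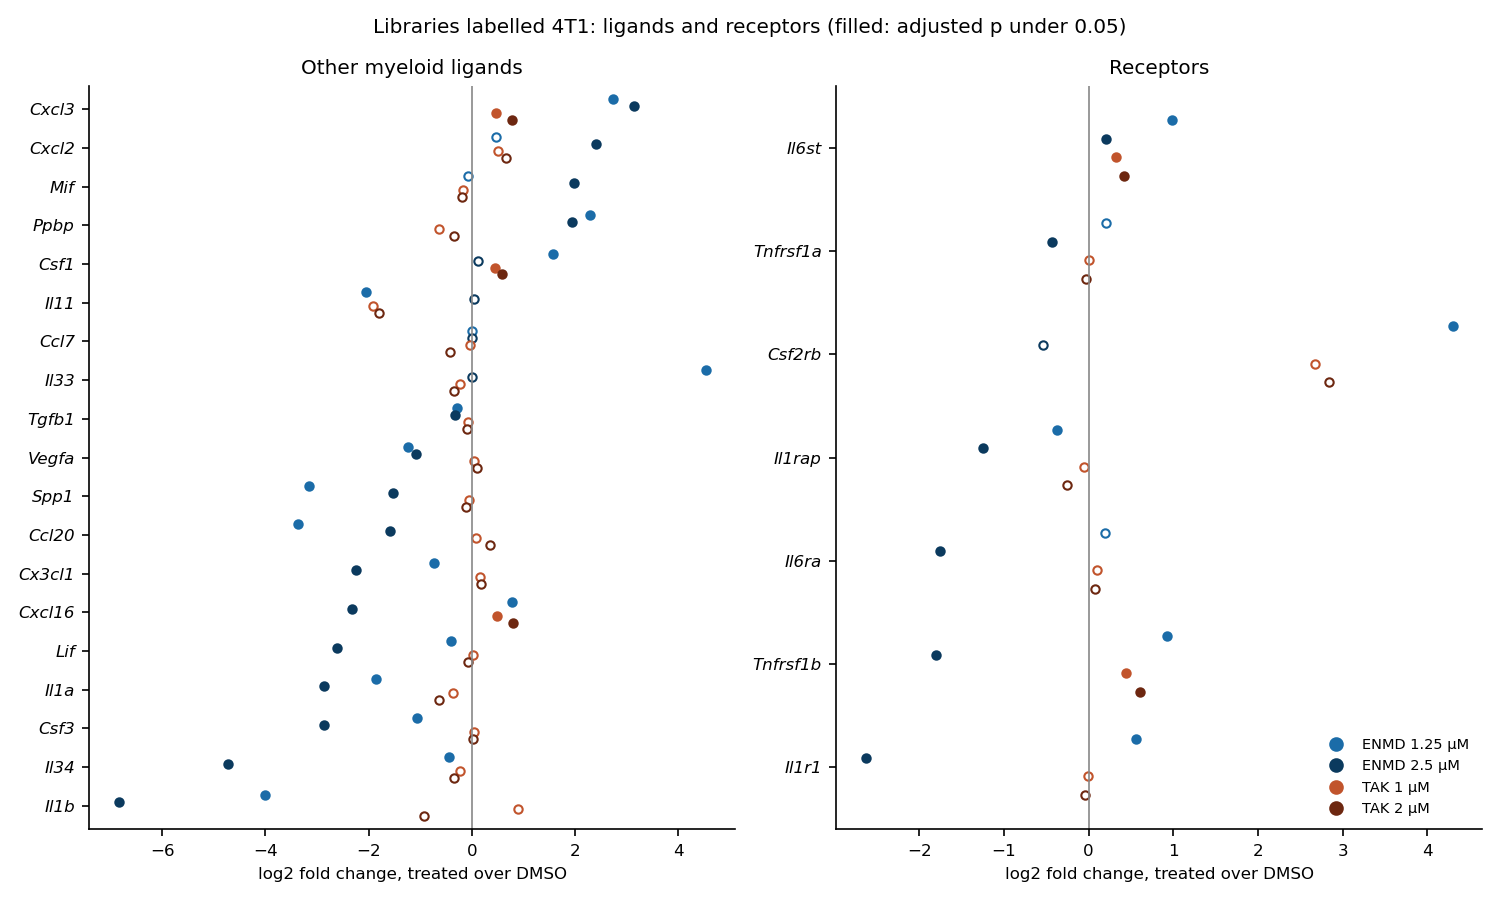
Log2 fold change over DMSO (x axis) of the 19 other myeloid ligands and 7 receptors tested in the libraries labelled 4T1, for ENMD-2076 1.25 and 2.5 µM against DMSO 1 and 2 and TAK901 1 and 2 µM against DMSO 3 and 4, with filled points past the threshold. Cxcl3 lay at 3.14 and Il34 at -4.73 with ENMD-2076 2.5 µM, while the 3 ligands called with TAK901 2 µM lay between 0.59 and 0.79.

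Among 18 transcription factors and kinases that act on these promoters, 7 were higher and 5 lower with ENMD-2076 1.25 µM (median log2 fold change 0.21), and 4 were higher and 13 lower with 2.5 µM (median -0.78), beside 45.9% of all genes called at 1.25 µM and 70.3% at 2.5 µM (33.2% higher, 37.1% lower). At 2.5 µM Cebpb, the C/EBP protein best known for driving Il6, stood at 9.53 and 12.2 CPM, against 96.4 and 98.2 CPM in DMSO 1 and 2 (log2 fold change -3.18, SE 0.13, edgeR adjusted p = 1.0e-19). Egr1, an immediate early factor, averaged 2.49 ± 0.224 CPM, against 22 ± 0.133 (SD, n = 2 each; -3.15, SE 0.22, adjusted p = 4.8e-14). The AP-1 subunits Junb (-2.14, SE 0.08, adjusted p = 1.2e-20) and Jund (-1.74, SE 0.08, adjusted p = 5.1e-18) also fell, although Jund was called higher at 1.25 µM. Neither family fell as a whole at 2.5 µM. The AP-1 gene Fosl2 (187 and 199 CPM, against 101 and 111 CPM) and the C/EBP gene Cebpd (3.6 and 3.18 CPM, against 1.03 and 1.12 CPM) were called higher. With scaling by total counts 2 were higher and 13 lower. With TAK901 1 µM 2 rose and 0 fell (median 0.15), a count of 0 with DESeq2 and of 0 to 4 when a library was left out, each of the TAK901 set giving 0. With 2 µM 4 rose and 1 fell (median 0.23), and 9.14 and 14.9% of all genes were called at the 2 doses. Cebpd rose by 0.67 (SE 0.13, adjusted p = 4.5e-04), at 47.8 ± 4.19 CPM, against 30.1 ± 1.63 with DMSO 3 and 4. Atf3 rose by 0.49 (SE 0.16, adjusted p = 0.0311) and Jund by 0.35 (SE 0.09, adjusted p = 0.00565), and both were lost without the first TAK901 2 µM library, Atf3 also without the second or DMSO 4 (adjusted p up to 0.328), whereas Fosl1 fell by 0.45 (SE 0.10, adjusted p = 0.00179). With total counts 7 rose and 1 fell, and without the first TAK901 2 µM library 1 rose and 1 fell.

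Of 15 genes of NF-kB feedback and of message decay, 9 were higher and 5 lower with ENMD-2076 1.25 µM (median log2 fold change 0.30), and 6 were higher and 9 lower with 2.5 µM (median -0.76), beside 45.9 and 70.3% of all genes called. Elavl1, which encodes the stabilising AU-rich element protein HuR, stood at 549 and 570 CPM at 2.5 µM, against 98 and 103 CPM in DMSO 1 and 2 (log2 fold change 2.48, SE 0.07, edgeR adjusted p = 5.2e-24). Arid5a, which is known to stabilise Il6 messages, fell to 13.7 ± 1.94 CPM, against 73.9 ± 3.83 (SD, n = 2 each; -2.44, SE 0.12, adjusted p = 1.9e-17). Zc3h12a, whose product Regnase-1 cleaves Il6 messages, fell to 3.43 ± 1.22 CPM, against 12.3 ± 0.444 (-1.79, SE 0.18, adjusted p = 3.1e-10). Nfkbie, an inhibitor of NF-kB, fell to 4.99 ± 0.449 CPM, against 27.8 ± 0.697 (-2.49, SE 0.15, adjusted p = 3.2e-15). Other inhibitor genes went the other way and were called higher, Nfkbia at 109 and 140 CPM, against 49.1 and 48.8 CPM, and Nfkbib at 29 and 31 CPM, against 19 and 17 CPM. With TAK901 1 µM 3 rose and 2 fell (median 0.09), a count of 1 without either TAK901 1 µM library, of 2 without DMSO 3 and of 3 without DMSO 4. With 2 µM 3 rose and 3 fell (median 0.04), beside 14.9% of all genes called and 9.14% at 1 µM. The inhibitors Nfkbie (0.76, SE 0.16, adjusted p = 8.5e-04) and Nfkbia (0.57, SE 0.09, adjusted p = 3.0e-05) and the decay gene Zfp36l1 (0.65, SE 0.11, adjusted p = 6.0e-05) rose. Zfp36l2, of the same decay family as Zfp36l1, averaged 280 ± 3.69 CPM, against 374 ± 17.7 with DMSO 3 and 4 (-0.42, SE 0.06, adjusted p = 1.7e-05).

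**Figure D5:**
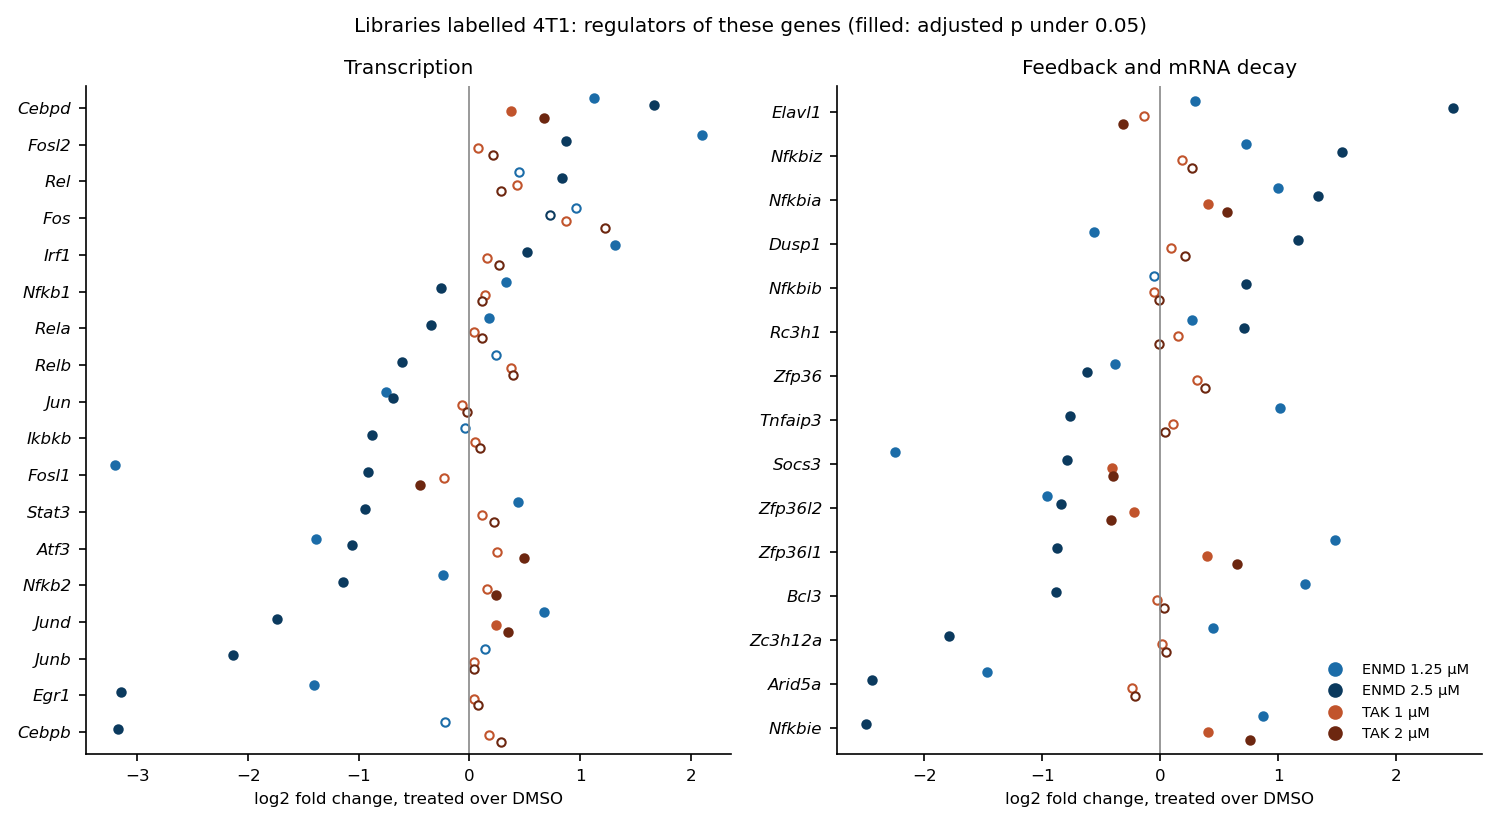
Log2 fold change over DMSO (x axis) of 18 transcription genes and 15 genes of feedback and message decay in the libraries labelled 4T1, in the same comparisons and with the same filling as the plot of ligands and receptors. Cebpb lay at -3.18 and Elavl1 at 2.48 with ENMD-2076 2.5 µM, and Cebpd at 0.67 and Fosl1 at -0.45 with TAK901 2 µM.

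Set side by side, the genes present in both lines did not share a pattern. At ENMD-2076 2.5 µM the log2 fold change of CXCL1 was -0.56 in MDA-MB-231 and that of Cxcl1 0.09 in the libraries labelled 4T1. At TAK901 2 µM it was -1.04 in MDA-MB-231 and 0.59 in the libraries labelled 4T1. IL6 rose with TAK901 and was not called with ENMD-2076 in MDA-MB-231, whereas Il6 was called with ENMD-2076 2.5 µM and not with TAK901 in the libraries labelled 4T1. The lines differ in species, table and depth, and the Y-linked and gut endoderm values of the TAK901 set go against its 4T1 label. Compound and set cannot be told apart in the libraries labelled 4T1. The differences between the lines were not tested.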

How the data were processed

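Whole-number gene counts were deposited, 1 table per library. Per the submitters' processing notes, the tools were HTSeq, TopHat, Bowtie, DESeq2 and FastQC (version 0.11.3) and the builds hg38 and mm10, and per the labels' protocols RNA was taken with TRIzol and libraries made with NEBNext Ultra. HTSeq summary lines, present in the 6 TAK901 set libraries labelled 4T1 (not aligned 16.4 to 40.1%, not unique 8.27 to 12%), were left out. Each line's groups were fitted together with edgeR 4.0.16 (R 4.3.3): filterByExpr, TMM, quasi-likelihood test, Benjamini-Hochberg adjustment over all genes tested, threshold 0.05. Levels are TMM-normalised CPM, and SE is the log2 fold change divided by the root of F. The steps were tested on simulated data. The members and lists were chosen with earlier results of these data known. Named genes of other lists are the 4 largest changes past the threshold per list and compound at its higher dose. Examples from the neighbours, Cxcl2, single markers and receptors and genes that went the other way were chosen after their values were seen. Alternatives were DESeq2 1.42.0, total-count scaling, no filter, other sample sets, a replicate block and leaving out libraries. Those for the other lists were chosen after seeing the data. Human genes beyond the 5 were not analysed here. One listed marker gene is not reported here.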

Additional observations from a re-analysis of the deposited data

Results flagged for a closer look

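In each pair below, both treated libraries lay on one side of the DMSO pair in one line and on the opposite side in the other. The share of all genes that separate in this way is not given here, so separation alone does not set these genes apart. Marker values of the TAK901 set go against its 4T1 label. The difference between the lines was not tested in any of these pairs. At ENMD-2076 2.5 µM the log2 fold change of IL6 was -0.26 in MDA-MB-231, where it did not pass the test, and the fitted value of Il6 was 7.97 in the libraries labelled 4T1, where DMSO 1 and 2 had 0 reads, so that this value is no measure of size. At TAK901 1 µM the log2 fold change of CXCL1 was -0.81 in MDA-MB-231 and that of Cxcl1 was 0.45 in the libraries labelled 4T1. At TAK901 2 µM CXCL1 stood at -1.04 and Cxcl1 at 0.59.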

How the results depend on the processing

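Of 888 alternative values for 54 results on the member genes, 817 kept their side of the threshold, and where called their direction, 37 lost the call, 32 gained one and 2 reversed. The reversed values were Cxcl1 at ENMD-2076 2.5 µM in the libraries labelled 4T1 (-0.41 without the second 2.5 µM library, 0.59 without the first) and Ccl2 at 2.5 against 1.25 µM (0.15 without the second 1.25 µM library, the range over left-out libraries being -6.79 to 0.15). Depth limits Il6, Csf2 and Ccl2 in the ENMD-2076 set, where a few reads decide the value, and groups of 2 libraries limit every test. The causes of the shifts below were not tested. Where a fit's all-gene count is not given beside its members called, the members cannot be set against all genes.

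In MDA-MB-231, all-gene counts of calls at ENMD-2076 2.5 µM were 232 with DESeq2, 266 with no filter, 813 with the 2 groups alone and 953 without the TAK901 2 µM pair, against 90; members called were 2, 2, 2 and 2 there and 0 with total-count scaling, against 1. At 5 µM the counts were 1100 with no filter, 2503 with the 2 groups and 2460 without that pair, against 725. At TAK901 1 µM they were 3153 with the 2 groups and 3970 without the pair, against 2065, and at 2 µM 2340 with the 2 groups, against 4623. Between ENMD-2076 doses they were 7 with DESeq2, 1 with total counts, 14 with no filter, 707 with the 2 groups (2 members) and 59 without the pair (1 member), against 2. Between TAK901 doses they were 1008 with DESeq2, 1369 with no filter and 0 with the 2 groups, against 555.

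In the libraries labelled 4T1, members called at ENMD-2076 1.25 µM were 2 within the set alone, against 4, and at 2.5 against 1.25 µM 5 with total counts, against 3. At TAK901 1 µM all-gene counts were 3719 with the 2 groups and 3042 within the set, against 1406, and members called 0 with DESeq2 and 4 with the 2 groups, against 2. At 2 µM members called were 0 with DESeq2, 2 with no filter, 2 with the 2 groups and 3 within the set, against 1. Between TAK901 doses counts were 56 with DESeq2, 17 with total counts, 81 with no filter, 99 with the 2 groups and 77 within the set, against 11. Total counts moved the share of higher calls to 34.1% at ENMD-2076 2.5 µM (47.3% with TMM), 36.2% at 2.5 against 1.25 µM (48.4%), 53.8% at TAK901 1 µM (43.5%) and 53.7% at 2 µM (37.7%).

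Leaving out a library gave all-gene counts in MDA-MB-231 of 11 to 966 and 67 to 2420 for ENMD-2076 2.5 and 5 µM, 739 to 3995 and 2843 to 5594 for TAK901 1 and 2 µM, and 1 to 64 and 22 to 3581 between doses, with 0 to 2, 1 to 2, 2 to 3, 2 to 4, 0 to 1 and 0 to 2 members. In the libraries labelled 4T1 it gave 6000 to 7393 and 10208 to 11305 for ENMD-2076 1.25 and 2.5 µM, 10660 to 11719 between them, 376 to 1740 and 1241 to 2582 for TAK901 1 and 2 µM and 1 to 34 between them, with 2 to 4, 3 to 4, 2 to 4, 0 to 2, 0 to 2 and 0 to 0 members.

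Replicate numbers were not taken to pair the libraries, since not every pair of groups passed 0.1: correlations of same-numbered deviations ran between -0.107 and 0.317. Those among DMSO and both TAK901 groups of MDA-MB-231 did pass it (0.261, 0.249 and 0.317). With the replicate block, MDA-MB-231 counts were 106, 867, 2311, 4838, 2 and 794 in the order above, and those of the ENMD-2076 set 5933, 9831 and 10258, with 2 members called at 1.25 µM. For the TAK901 set labelled 4T1 alone, no paired analysis was possible because DMSO 3 and 4 share no replicate numbers with its TAK901 libraries. For the other lists, 250 of 284 alternative counts lay within 1.5 times the reported one, and 978 of 1034 values for named genes kept their call, 45 lost it, 11 gained one and 0 reversed.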
